A study of Homo sapiens with 6 samples.

Results

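The 9 genes NCR3LG1, MICA, MICB, ULBP1, ULBP2, ULBP3, PVR, NECTIN2 and CD274 encode surface proteins through which a tumour cell is seen by natural killer (NK) cells or restrains lymphocytes. They were listed by symbol, and each was read from the probe set annotated to that gene alone with the highest mean signal over the 6 arrays, so that 9 of the 18417 genes measured are described here. The probe sets were chosen by their mean signal, and the list was drawn up with earlier results of these arrays known, NCR3LG1 at its head. The difference of NCR3LG1 is therefore given as a description with no test. RNA came from A549, a human lung adenocarcinoma cell line, as stable cells labelled H2AX knockdown (called P1 by the submitters, 3 arrays) and as control stable cells (called C, 3 arrays). All 6 samples had been starved of serum overnight and then kept for 48 h with VP-16 (etoposide, which traps topoisomerase II on broken DNA). Both groups thus carry the drug, and with no untreated group its effect cannot be read from these data. The samples of a group are labelled as independent experiments. How many stable lines each group came from was not analysed here, so the error covers the spread between experiments and may not cover that between lines. The labels name A549 cells alone, and neither surface protein nor killing by NK cells was measured in these data.

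NK cells weigh activating against inhibitory signals at the target's surface. NCR3LG1 encodes B7-H6, a ligand of the activating receptor NKp30 that is found mainly on tumour cells. MICA, MICB and the ULBP proteins are MHC class I-like ligands of the activating receptor NKG2D, and stress such as heat shock or DNA damage signalling through the kinases ATM and ATR is known to raise them in many cells. PVR and NECTIN2 bind the activating receptor DNAM-1 and also the inhibitory receptor TIGIT, and CD274 encodes PD-L1, the ligand of the checkpoint receptor PD-1.

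The stretches of 250 bases before the RefSeq start of 4 of the genes are shown: NCR3LG1 and ULBP2, whose signals did not overlap between the groups, and the neighbouring paralogs MICA and MICB. The sequences are from RefSeq (GRCh38.p14), 5′ to 3′ on the gene's strand, and all 9 genes were matched by symbol. Capitals mark letters that match a heat shock element (GAANNTTC), a CCAAT box (CCAAT) or a GC box (GGGCGG) on either strand.
NCR3LG1, chr11:17351550-17351799, plus strand: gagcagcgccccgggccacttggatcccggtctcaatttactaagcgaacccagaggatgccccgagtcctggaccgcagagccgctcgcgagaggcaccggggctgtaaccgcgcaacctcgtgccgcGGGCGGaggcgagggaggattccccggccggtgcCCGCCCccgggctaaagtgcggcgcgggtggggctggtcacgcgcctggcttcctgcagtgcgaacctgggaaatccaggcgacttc
ULBP2, chr6:149941764-149942013, plus strand: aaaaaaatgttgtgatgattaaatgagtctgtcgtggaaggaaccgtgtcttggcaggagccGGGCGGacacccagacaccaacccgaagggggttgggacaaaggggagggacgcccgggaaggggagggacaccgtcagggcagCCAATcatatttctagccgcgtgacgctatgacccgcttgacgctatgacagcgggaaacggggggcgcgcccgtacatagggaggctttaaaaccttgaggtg
MICA, chr6:31403345-31403594, plus strand: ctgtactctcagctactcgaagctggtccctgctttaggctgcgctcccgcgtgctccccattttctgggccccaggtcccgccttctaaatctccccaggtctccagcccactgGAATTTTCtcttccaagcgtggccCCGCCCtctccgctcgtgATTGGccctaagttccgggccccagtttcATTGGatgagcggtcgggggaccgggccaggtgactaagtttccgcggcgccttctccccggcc
MICB, chr6:31497895-31498144, plus strand: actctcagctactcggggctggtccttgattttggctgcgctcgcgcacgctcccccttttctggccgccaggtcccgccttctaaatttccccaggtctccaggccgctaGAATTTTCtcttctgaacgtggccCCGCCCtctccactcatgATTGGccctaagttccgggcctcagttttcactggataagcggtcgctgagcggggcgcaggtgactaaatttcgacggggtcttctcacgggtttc

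MICA and MICB were alike in this stretch, with 209 identical bases among 246 aligned (85%), against 65.5% for ULBP1 and ULBP2, the next most alike among all pairs. Both held the heat shock letters GAATTTTC, which began 135 bases before the start in MICA and 139 bases before it in MICB. These letters, in any form of GAANNTTC, were found in 2 of the 9 genes and in 5.78% of 35116 RefSeq promoter stretches of the same length. The GC box was in 8 of the 9 genes, all but PVR, and in 42.6% of all stretches. The CCAAT box was in 3, MICA, MICB and ULBP2, and in 32% of all stretches. No match was found in the 9 for the E-box CACGTG (6.34% of all stretches), the cAMP response element TGACGTCA (1.65%) or the NF-kB motif (5.21%). A match is a run of letters and not a shown binding site. The promoters of NCR3LG1 and ULBP2, the genes with the lowest differences below, shared the GC box and no other of these 6 motifs.

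Before the 9 genes are compared, the labels and arrays were checked. H2AX, the targeted histone gene, had log2 signals of 5.28, 5.17 and 5.49 in the arrays labelled H2AX knockdown, against 5.11, 5.27 and 5.26 in controls, a difference of 0.10 (95% interval −0.25 to 0.45). The fall that the label implies was thus not seen in this signal, and every direction below is that of the label. Bright genes read lower in the knockdown-labelled arrays in general: with all genes placed in 5 equal bins of mean signal, their median differences (log2) were 0.15, 0.07, −0.01, −0.10 and −0.25 from the dimmest to the brightest. Knockdown-labelled replicate 1 had the smallest SD over all probe sets (1.60, against 1.71 to 1.86 in the other arrays), so differences of the 9 genes and medians of the related lists that move without it are also given without it. Of 12 measured epithelial and A549 markers 7 were in the brightest bin. The brightest was KRT8, a keratin (9.73 to 10.04 in knockdown-labelled arrays and 9.44 to 9.83 in controls). KRT8 was at 0.24, while 9 of the 12 were below 0, with a median of −0.17. EPCAM, an epithelial adhesion molecule, and SFTPB, a surfactant protein of alveolar cells, were in the dimmest bin. Of 20 NK and T cell markers 18 were measured, none in the brightest bin. Their mean log2 signal per array was 2.80 to 3.01 in knockdown-labelled arrays and 2.66 to 2.82 in controls.

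**Figure D1:**
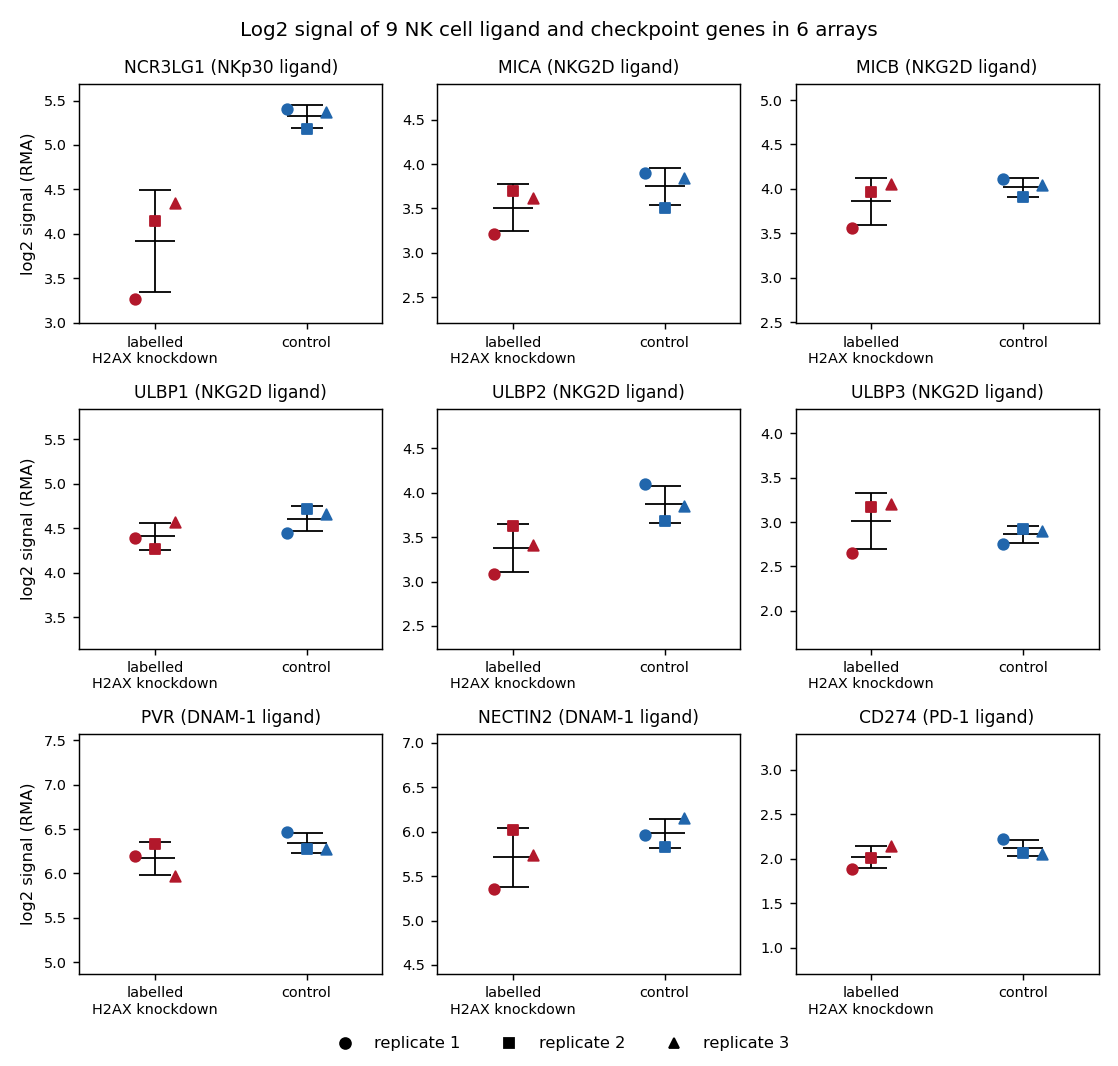
Log2 signal of each of the 9 genes (vertical axis, all panels spanning the same range) in the 3 arrays labelled H2AX knockdown (red, left) and the 3 control arrays (blue, right). Marker shapes are replicate numbers and bars are the mean and SD. Only NCR3LG1 and ULBP2 have no overlap between the groups, and knockdown-labelled replicate 1 is the lowest of the 6 arrays in 7 of the 9 panels.

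The ligand of NKp30 was the gene that differed most. NCR3LG1 (probe set 7938702, Entrez gene 374383, chromosome 11) had log2 signals of 3.27, 4.14 and 4.35 in the arrays labelled H2AX knockdown, against 5.41, 5.18 and 5.37 in controls. Every knockdown-labelled array lay below every control array, and the spread was wider in the knockdown-labelled arrays. The means were 3.92 ± 0.573 in knockdown-labelled arrays and 5.32 ± 0.125 in controls (SD, n = 3 each), a log2 difference of −1.40 ± 0.239 (SE), or a 2.63-fold lower signal. Its difference ranked 5 from the lowest of the 18417 genes, while the median of genes in its bin of mean signal was −0.10. Without knockdown-labelled replicate 1, the lowest array, the difference was −1.07. RMA compresses differences of dim probe sets, so the fold is that of the signal and not of RNA molecules. In RNA from whole cultures, fewer cells that express a gene and less RNA per cell cannot be told apart.

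Among the ligands of NKG2D, ULBP2 was the lowest. ULBP2 (probe set 8122720, chromosome 6), a lipid-anchored ligand, read 3.09, 3.63 and 3.41 in knockdown-labelled arrays, against 4.10, 3.68 and 3.85 in controls. The groups did not overlap, though 3.63 and 3.68 stood close together. The difference was −0.50 ± 0.185 (SE), or 1.41-fold lower, with a 95% interval of −0.90 to −0.10, and it did not pass the threshold of 0.05 over all genes (limma, Benjamini-Hochberg adjusted p = 0.347). Without knockdown-labelled replicate 1 it was −0.35. The median of genes in its bin of signal was −0.01.

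The other 4 NKG2D ligands overlapped between the groups. MICA, a transmembrane ligand (probe set 8118100, chromosome 6), read 3.21, 3.70 and 3.62 in knockdown-labelled arrays, against 3.90, 3.51 and 3.84 in controls, of which replicate 2 lay below 2 of the knockdown-labelled arrays. Its difference was −0.24 (95% interval −0.64 to 0.15, limma adjusted p = 0.603), and −0.09 without knockdown-labelled replicate 1. MICB, its close paralog (probe set 8177955), read 3.56, 3.97 and 4.06, against 4.11, 3.91 and 4.04 in controls, a difference of −0.16 (−0.53 to 0.22, adjusted p = 0.734). Its knockdown-labelled replicates 2 and 3 lay within the range of the controls, and without knockdown-labelled replicate 1 the difference was −0.01. ULBP1, a lipid-anchored ligand like ULBP2 (probe set 8122724), read 4.39, 4.27 and 4.57, against 4.45, 4.72 and 4.66 in controls. Its difference was −0.20 (−0.55 to 0.16, adjusted p = 0.641), and knockdown-labelled replicate 3 lay above control replicate 1. ULBP3, of the same family (probe set 8130176), was the only gene of the 9 above 0: it read 2.65, 3.17 and 3.20 in knockdown-labelled arrays, against 2.75, 2.92 and 2.90 in controls. Its difference was 0.15 (−0.24 to 0.54, adjusted p = 0.761), and 0.33 without knockdown-labelled replicate 1, which was its lowest array, but 0.03 after quantile normalization and 0.05 after cyclic loess. These intervals reach falls of 30.9% to 35.8% in signal for MICA, MICB and ULBP1 and of 15.6% for ULBP3, so the arrays do not show that these ligands were alike in the groups.

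MICA and MICB each had a second probe set. That of MICA (8179238) read 2.56, 3.03 and 3.03 in knockdown-labelled arrays, against 3.66, 2.81 and 3.46 in controls, a difference of −0.43 and overlapping as well. That of MICB (8118116) had a difference of −0.19. MICA and MICB are known as close paralogs. Whether their probes read both transcripts was not tested, so the signal of each is uncertain.

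The ligands of DNAM-1 were in the brightest bin of genes, and their differences lay near the median of that bin, −0.25. PVR, the poliovirus receptor (probe set 8029437, chromosome 19), read 6.20, 6.33 and 5.97 in knockdown-labelled arrays, against 6.47, 6.28 and 6.27 in controls. Its difference was −0.18 (95% interval −0.53 to 0.18, limma adjusted p = 0.676), and it turned to 0.06 after quantile normalization and 0.07 after cyclic loess. NECTIN2, an adhesion molecule of cell junctions (probe set 8029507, chromosome 19), read 5.35, 6.02 and 5.74, against 5.96, 5.83 and 6.15 in controls. Its difference was −0.27 (−0.69 to 0.14, adjusted p = 0.567). It was −0.10 without knockdown-labelled replicate 1 and −0.43 without knockdown-labelled replicate 2, and −0.08 after quantile normalization and −0.05 after cyclic loess. The groups overlapped for both genes.

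CD274, the gene of PD-L1 (probe set 8154233, chromosome 9), was in the dimmest bin. It read 1.89, 2.01 and 2.14 in knockdown-labelled arrays, against 2.22, 2.07 and 2.05 in controls. The difference was −0.10 (95% interval −0.44 to 0.24, limma adjusted p = 0.819), with overlap, while the median of its bin was 0.15. It was −0.28 after quantile normalization and after cyclic loess, and −0.04 with array weights. Leaving out knockdown-labelled replicate 1 gave −0.04, knockdown-labelled replicate 3 gave −0.16, and control replicate 1 gave −0.05. The deposited values give no background level, so a change of this gene could be missed at such a signal.

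**Figure D2:**
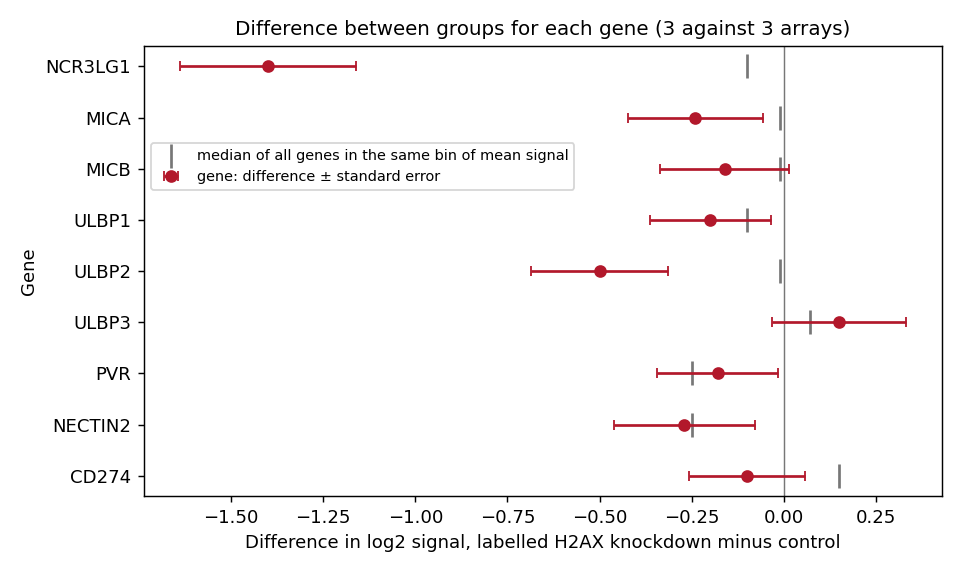
Difference in log2 signal (horizontal axis), arrays labelled H2AX knockdown minus control, for each gene (rows). Points and bars are the difference and its standard error from limma, and grey ticks the median of all genes in the same bin of mean signal. NCR3LG1 lies at −1.40 and ULBP2 at −0.50, and the other 7 between −0.27 and 0.15.

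Of the 9 genes 8 were below 0, against 51.5% of all genes, with a median difference of −0.20, against −0.01 over all genes. The median of the 9 was −0.10 without knockdown-labelled replicate 1, with 8 still below 0. That array was the lowest of the 6 for 7 of the 9 genes, and for 28.4% of all genes. The groups did not overlap for 2 of the 9, NCR3LG1 and ULBP2, both lower, where 9.82% of all genes were lower and 17% were separated in either direction. None of the 9 passed the threshold (limma, adjusted p under 0.05), which 0.0326% of all genes did. NCR3LG1 was chosen with its difference known, so its part in these counts is no result. Of the other 8, only ULBP2 was without overlap, and only ULBP2 had an unadjusted p under 0.05 (limma), against 12.2% of all genes. These counts describe the list, which was chosen with results known.

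**Figure D3:**
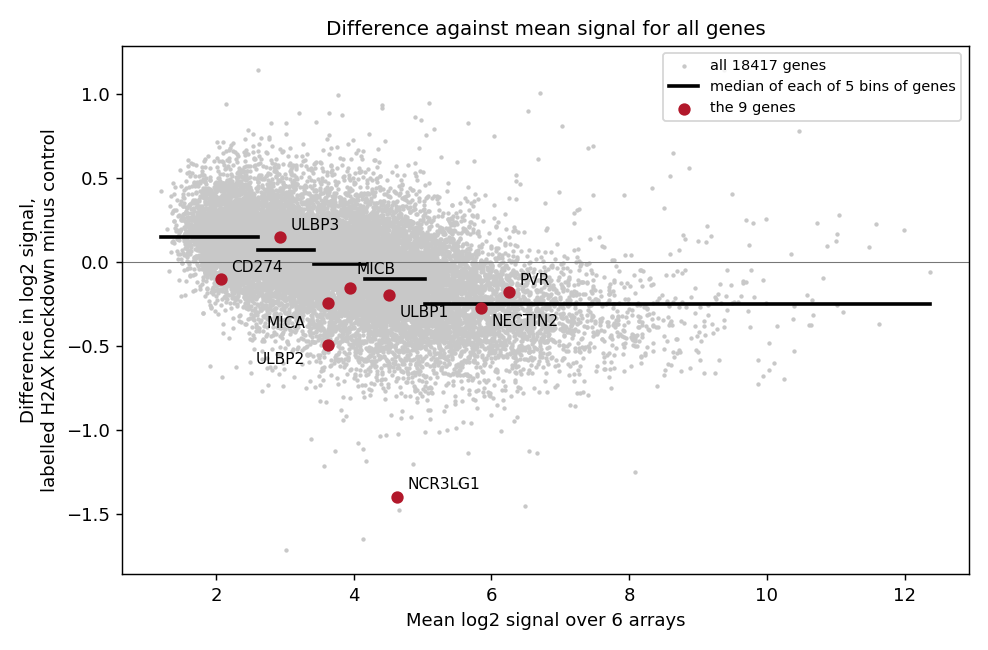
Difference in log2 signal, arrays labelled H2AX knockdown minus control (vertical axis), against mean log2 signal over the 6 arrays (horizontal axis) for 18417 genes (grey). Black bars are the medians of the 5 bins of genes by mean signal, from 0.15 in the dimmest to −0.25 in the brightest, and red points the 9 genes. NCR3LG1 lies at the lower edge of all genes, and the other 8 lie within the cloud.

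Across the 6 arrays the other genes followed NCR3LG1 to different degrees. ULBP2 had the highest Pearson correlation with it (r = 0.907), then MICA (0.792), MICB (0.774), NECTIN2 (0.771), CD274 (0.739), ULBP1 (0.604) and PVR (0.45). ULBP3 did not follow it (0.0276). The 6 arrays share the 2 groups and the low readings of knockdown-labelled replicate 1, so these values are a description. By the same measure, among all genes that varied at least 0.5 times as much, the 5 most like NCR3LG1 were AKR1C2 (r = 0.985), HLA-DMA (0.977), FAM83G (0.976), PEA15 (0.976) and IGFBP7 (0.975). AKR1C2 encodes an aldo-keto reductase of steroids with near-identical paralogs, HLA-DMA a chaperone of MHC class II peptide loading, PEA15 a cytosolic death effector domain protein, and IGFBP7 a secreted insulin-like growth factor binding protein. All 5 were without overlap and below control, as were 9.82% of all genes. They were picked for following NCR3LG1, which was so itself, so this is no separate result. IGFBP7 read 4.32, 5.27 and 5.69 in knockdown-labelled arrays, against 6.33, 5.94 and 6.42 in controls, a difference of −1.13 ± 0.282 (SE). HLA-DMA read 3.82, 4.31 and 4.52, against 5.41, 4.89 and 5.14 in controls, a difference of −0.93 ± 0.206 (SE). In both, as in NCR3LG1, knockdown-labelled replicate 1 was the lowest array, which the choice by correlation favours.

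Genes around the 9 in the same biology were read from 6 lists, and none of their genes passed the threshold in either direction (limma, smallest adjusted p = 0.289). Their counts stand against 51.5% of all genes below 0, 17% without overlap and 12.2% with an unadjusted p under 0.05. The 4 further ligands of NKG2D and NKp30 had a median difference of −0.23, with 3 below 0 and 1 with an unadjusted p under 0.05. The median was −0.10 without knockdown-labelled replicate 1, −0.36 without knockdown-labelled replicate 2 and −0.12 without control replicate 3. That gene was RAET1L, a further ULBP family ligand, named after its value was seen. Whether its probes also read ULBP2, of the same family, was not tested. RAET1L read 5.14, 5.41 and 4.92 in knockdown-labelled arrays, against 5.35, 5.52 and 5.84 in controls (difference −0.42, limma adjusted p = 0.403), with overlap. BAG6, another ligand of NKp30 when released from cells, was at −0.25 with overlap, and was named for its role. Both RAET1L and BAG6 were in the brightest bin, whose median was −0.25. Ligands of other NK cell receptors (21 of 22 measured) had a median of −0.08, with 11 below 0, 10 above 0 and 1 with an unadjusted p under 0.05. The median of this list was above 0 without knockdown-labelled replicate 1 (0.01) and with array weights (0.03). CD99, a surface glycoprotein of adhesion, was its only gene without overlap, at 5.63, 6.00 and 5.96 in knockdown-labelled arrays, against 6.12, 6.19 and 6.30 in controls (difference −0.34, adjusted p = 0.426). CD99 was in the brightest bin as well.

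Genes of MHC class I antigen presentation had 11 of 18 measured, and the HLA class I genes themselves were not analysed here. Their median difference was −0.14, with 8 below 0, no gene without overlap and 0 with an unadjusted p under 0.05 in limma. The median was −0.09 without knockdown-labelled replicate 1, −0.08 without control replicate 1 and −0.22 without control replicate 2, and −0.07 after quantile normalization and −0.02 after cyclic loess. B2M, the light chain that all class I molecules need at the surface, was the lowest at −0.30, with overlap, and was named after its value was seen. It was among 5 of the 11 genes in the brightest bin, whose median was −0.25. Other checkpoint ligands (16 measured) had a median of −0.04, or 0.01 without knockdown-labelled replicate 1, and 2 with an unadjusted p under 0.05. CD80, a ligand of CD28 and CTLA-4, was higher without overlap, at 3.02, 2.87 and 2.65 in knockdown-labelled arrays, against 2.34, 2.35 and 2.36 in controls. Its difference was 0.50 (limma adjusted p = 0.305), in the dimmest bin, whose median was 0.15. CEACAM1, an adhesion molecule that inhibits NK cells by binding itself, was at −0.39 without overlap (adjusted p = 0.411), in the brightest bin, whose median was −0.25. CD80 and CEACAM1 were the only genes of the 16 without overlap, against 17% of all genes.

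Genes that shed ligands from the surface or hold them there had a median of −0.28, with 9 of 12 below 0 (51.5% of all genes) and 4 with an unadjusted p under 0.05 (12.2% of all genes). Of the 12, 6 were in the brightest bin, whose median was −0.25. The list's median was −0.06 without knockdown-labelled replicate 1, −0.15 with array weights and after cyclic loess, and −0.17 after quantile normalization. CMTM6, which keeps PD-L1 at the cell surface, read 4.89, 4.69 and 5.02 in knockdown-labelled arrays, against 5.64, 5.26 and 5.22 in controls. Its difference was −0.51 (limma adjusted p = 0.316), without overlap. The sheddase ADAM9 was at −0.45, also without overlap (adjusted p = 0.369). CMTM6 and ADAM9 were the only genes of the 12 without overlap, against 17% of all genes in either direction and 9.82% lower. ADAM10 and ADAM17, the main proteases that release MICA and MICB, were at −0.44 and −0.45 with overlap, and were named after their values were seen. CMTM6, ADAM9, ADAM10 and ADAM17 were all in the brightest bin.

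Regulators of ligand transcription (26 of 29 measured) had a median of −0.19, with 21 below 0 (51.5% of all genes) and 4 with an unadjusted p under 0.05 (12.2% of all genes). Of the 26, 11 were in the brightest bin, whose median was −0.25. The list's median was −0.12 without knockdown-labelled replicate 1 and −0.30 without control replicate 2, and −0.11 after quantile normalization and −0.09 after cyclic loess. NFKB1, which encodes a subunit of NF-kB, read 3.86, 3.23 and 3.99 in knockdown-labelled arrays, against 4.67, 4.15 and 4.37 in controls. Its difference was −0.70 ± 0.214 (SE, limma adjusted p = 0.289), without overlap. TBK1, a kinase of innate DNA and RNA sensing, was at −0.58 (adjusted p = 0.327) and JAK1, a kinase of cytokine and interferon receptors, at −0.47 (adjusted p = 0.314), both without overlap. These 3 were the only genes of the 26 without overlap, against 17% of all genes in either direction and 9.82% lower. JAK1 was in the brightest bin. The damage kinases ATM and ATR, named for their role and outside the rule, were at −0.30 and 0.07 with overlap.

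**Figure D4:**
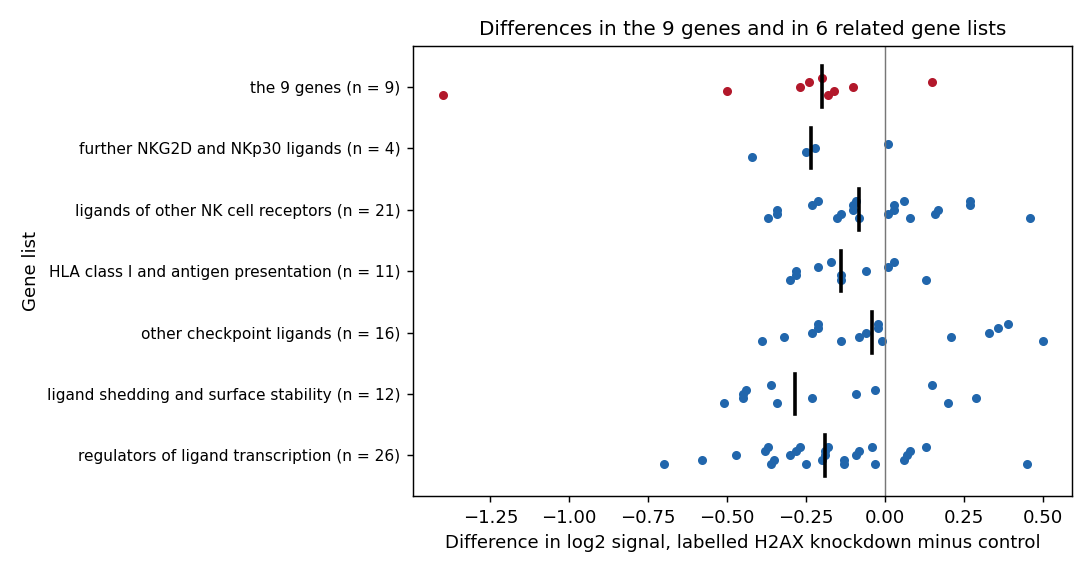
Difference in log2 signal (horizontal axis), arrays labelled H2AX knockdown minus control, of every measured gene (points, spread vertically for sight only) in the 9 genes (red) and in 6 related lists (blue), with the median of each list as a black bar. NCR3LG1 at −1.40 lies apart from all genes of the lists, which run from −0.70 (NFKB1) to 0.50 (CD80).

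Markers of NK and T cells and of fibroblasts were mostly above 0, and those of myeloid and endothelial cells were not. The 18 NK and T cell markers had a median difference of 0.12, with 14 above 0, and 8 fibroblast markers one of 0.29, with 8 above 0. The 8 myeloid and endothelial markers had a median of −0.01, with 4 above 0, and the 12 epithelial and A549 markers one of −0.17, with 9 below 0. In the dimmest bin were 8 NK and T cell markers, 2 fibroblast markers and 0 myeloid and endothelial markers. CD68, the brightest of the last list, read 8.23, 8.63 and 8.55 in knockdown-labelled arrays, against 9.19, 8.69 and 8.91 in controls. Its difference was −0.46, without overlap (limma adjusted p = 0.364), and the median of its bin was −0.25. The mean log2 signal per array of the fibroblast markers was 3.28 to 3.66 in knockdown-labelled arrays and 3.06 to 3.25 in controls. None of these markers passed the threshold (limma, smallest adjusted p = 0.273), and 1 in each list had an unadjusted p under 0.05 in limma. Across all genes 12.2% had such a p, 51.5% were below 0 and 17% were without overlap. TIGIT and GNLY were higher without overlap, and ALDH1A1 and SFTPB lower without overlap. ALDH1A1 had the lowest difference of its list (−0.61) and the smallest adjusted p. These genes were named after their values were seen. Of the fibroblast markers 0 were without overlap. The part of the markers in the values of the 9 genes was not tested.

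**Figure D5:**
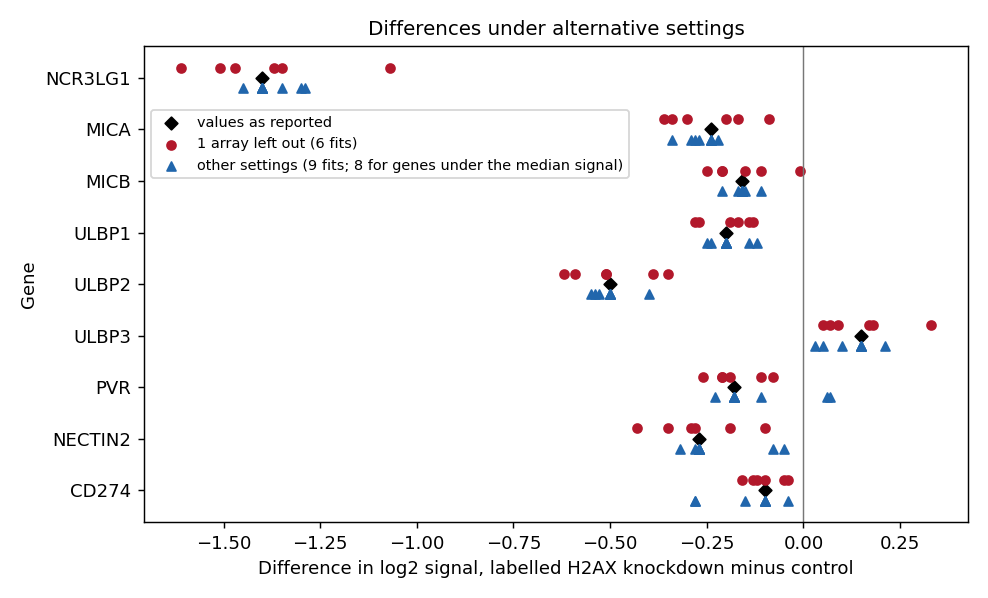
Difference in log2 signal (horizontal axis), arrays labelled H2AX knockdown minus control, of each gene (rows) as reported (black), with each array left out in turn (red) and under the other settings (blue). NCR3LG1 runs from −1.61 to −1.07 and ULBP2 from −0.62 to −0.35, while PVR crosses 0.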

How the data were processed

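The authors deposited a log2 signal for each of 33297 probe sets per array. The submitters' processing notes name RMA, with no version in the sources used here, and the log2 scale was inferred from the values, 0.611 to 13.2. No column was left unused. The annotation of the platform, which may be outdated, paired 19460 probe sets with 1 gene, 1754 with several and the other 12083 with none, and only the first kind was used. Each of 18417 genes was read from its probe set of highest mean. Low signals were not filtered. Groups came from the sample titles.

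The fit across all genes used limma 3.58.1 (lmFit and eBayes, R 4.3.3), knockdown-labelled minus control, 2-sided. Adjusted p-values are Benjamini-Hochberg values over the 18417 genes, called under 0.05. Precision is limited by the number of arrays. The procedure was run on simulated data, independent noise with known differences added. Those data held neither the shift with mean signal nor an array like knockdown-labelled replicate 1, so they do not test the fit against these. The members, lists and settings were chosen with earlier results of these data known. Named were the 9 genes, H2AX, per related list up to 4 genes without overlap, and the 5 genes most like NCR3LG1 in pattern. Others were named for their role or after their values were seen, as marked. Marker genes were named after their signals or differences were seen. Promoter stretches are RefSeq's, aligned with Biopython 1.88. Figures were drawn with matplotlib 3.10.9. Alternatives were a replicate block, quantile normalization, cyclic loess, array medians subtracted, dim genes left out (mean signal under the median), probe sets averaged or tested singly, array weights, a variance trend with robust estimation, and leaving out single arrays.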

Additional observations from a re-analysis of the deposited data

How the results depend on the processing

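Of 131 values of single genes under the alternatives, 129 kept their direction, and for the 8 genes tested none passed the threshold in any of them. The 2 that turned were PVR, at 0.06 after quantile normalization and 0.07 after cyclic loess. NCR3LG1 ran from −1.61 without knockdown-labelled replicate 3 to −1.07 without knockdown-labelled replicate 1. The median of the 9 genes ran from −0.28 to −0.10 with 1 array left out. The count of the 9 past the threshold was 1 with the filter at the median signal (5 of the 9 kept) and with array weights, and 0 to 1 with 1 array left out (1 without knockdown-labelled replicate 3). In each case this was NCR3LG1, which was chosen with its difference known, so the count is no test of that gene. The number of all genes past it, 6, was 3 with a replicate block and with probe sets averaged, 16 with the filter, 191 with array weights, 0 after quantile normalization (1495 at an unadjusted p under 0.05) and after cyclic loess (1506), and 0 to 9 with 1 array left out. The medians of 2 lists turned above 0: ligands of other NK cell receptors with array weights (0.03) and without knockdown-labelled replicate 1 (0.01), and other checkpoint ligands without that array (0.01). With 1 array left out the first ran from −0.08 to 0.01 and the second from −0.09 to 0.01. The cause of these changes was not tested.

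The labels state no pairing of samples by replicate number. Deviations from the group means correlated at −0.31, −0.02 and 0.07 between same-numbered arrays, and not every array was closest to its own number. Such deviations sum to 0 within a group and carry array-wide shifts. They therefore cannot tell whether same-numbered samples shared an experiment. With the replicate block 0 of the 9 genes passed. Dim signals limit CD274 and ULBP3 most, since signal over background is not given by these values.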
